A study of Mus musculus with 6 samples.

Results

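Aminoacyl-tRNA synthetases, the enzymes that join each amino acid to its transfer RNAs, were taken from a mouse liver array study by the gene name printed for each probe. The rule kept names made of a 1-letter amino acid code followed by "ars", with or without a closing 1, 2 or l, together with Eprs, Ears2 and names beginning with Fars or Aimp. It matched 65 of 41174 probes, which stood for 33 of the 27666 gene names on the array. Of these genes, 18 encode cytosolic enzymes, 12 encode mitochondrial enzymes and 2, Gars and Kars, encode enzymes of both compartments. The last is no synthetase: the probe named Hars2 on the array carries the accession of Dtd1, a deacylase that removes D-amino acids from tRNA, so 32 synthetase genes were measured. Another 7 genes carry older names on the array and appear here under their current symbols, among them Mars1 (array name Mars), Hars2 (Harsl) and Vars (Vars2). No probe with a name beginning in Aimp was found by the rule.

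Total RNA from whole livers of male C57BL/6J mice, an inbred strain, was measured with a single dye on Agilent arrays. Mice were put on a diet at 8 weeks of age and killed 12 weeks later, at 20 weeks. The CFD diet group ate a diet without choline and folic acid that held 0.17% methionine by weight, while the control group ate the same base diet with more methionine (0.4%) and with folic acid (2 mg/kg) and choline bitartrate (0.3%). Both diets were iron-supplemented and supplied amino acids in free form. There were 3 control arrays and 3 CFD diet arrays, and arrays with the same replicate number shared a slide. The labels do not state that replicates came from separate mice, so p-values cover only sample-to-sample spread, part or all of which may be technical.

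In general a synthetase recognises 1 amino acid and its tRNAs, and by charging the right pair it sets which codon is read as which residue. Cells keep separate cytosolic and mitochondrial sets, both encoded in the nucleus, and the mitochondrial set serves the translation of a few respiratory chain subunits. Several cytosolic synthetases assemble with the AIMP scaffold proteins into the multisynthetase complex. Uncharged tRNA activates the kinase GCN2, which leads to translation of the transcription factor ATF4, and genes of several cytosolic synthetases are known ATF4 targets. In liver, where much secreted protein is made, these enzymes are expressed in every cell type.

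ATF4 binds with C/EBP proteins to a composite element, so the promoters of the members were searched for TGATGNAAN on both strands. RefSeq windows from 250 bases before to 50 after the start site (build GRCm38.p6) were available for 24 of the 33 members, and 5 of them (20.8%) held the element. Counted the same way, 1215 of 27025 genes held it in at least 1 of their windows (4.5%). Counted by window, it was in 5 of the 25 windows of these members and in 1299 of all 32851 windows (3.95%). The 5 windows that held it are shown, with Sars beside them as the member with the highest fold change and no match, each from base -130 to base 20 counted from the start site. These edges were chosen after the table was seen, and capitals mark the matches.
Aars chr8:111033712-111033861 (+ strand): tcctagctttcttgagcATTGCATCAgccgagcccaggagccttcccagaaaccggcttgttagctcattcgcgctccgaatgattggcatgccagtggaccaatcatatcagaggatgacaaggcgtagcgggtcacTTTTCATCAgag
Gars chr6:55037871-55038020 (+ strand): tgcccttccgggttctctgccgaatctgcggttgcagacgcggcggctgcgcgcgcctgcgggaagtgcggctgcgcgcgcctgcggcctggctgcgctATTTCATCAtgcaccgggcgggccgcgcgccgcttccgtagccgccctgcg
Iars chr13:49682000-49682149 (+ strand): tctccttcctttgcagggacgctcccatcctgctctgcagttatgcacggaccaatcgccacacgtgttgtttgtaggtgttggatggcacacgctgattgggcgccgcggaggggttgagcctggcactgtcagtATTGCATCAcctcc
Tars chr15:11399639-11399788 (- strand): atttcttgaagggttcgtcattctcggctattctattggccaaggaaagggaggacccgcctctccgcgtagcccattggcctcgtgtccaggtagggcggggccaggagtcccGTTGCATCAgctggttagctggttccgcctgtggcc
Yars chr4:129189773-129189922 (+ strand): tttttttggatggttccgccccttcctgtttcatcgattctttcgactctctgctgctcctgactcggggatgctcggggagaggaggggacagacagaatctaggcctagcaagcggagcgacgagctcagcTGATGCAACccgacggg
Sars chr3:108445240-108445389 (- strand): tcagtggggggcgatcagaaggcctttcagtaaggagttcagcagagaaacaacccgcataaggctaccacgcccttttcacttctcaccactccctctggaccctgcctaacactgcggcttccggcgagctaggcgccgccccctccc
Aars, the alanyl enzyme, held 2 matches, from base -113 to -105 and from 9 to 17. Gars, the glycyl enzyme, held its match from base -31 to -23, and in Tars, the threonyl enzyme, it lay from -16 to -8. The matches of Iars (isoleucyl) and Yars (tyrosyl) began at bases 7 and 4. These 5 genes did not share a direction: Gars rose on the CFD diet, Tars fell, and Aars, Iars and Yars did not pass the test, with the values given beside each gene. A cAMP-response-like element, TGACGTNA, matched in 0 of 24 members and in 3.36% of all genes, which says only that these letters were not in the members' windows. An interferon-gamma-activated-sequence-like element, TTCNNNGAA, matched in 3 members (12.5%; Aars, Kars and Nars2) and in 9.55% of all genes. Its match in the Aars window, from -88 to -80, does not overlap the capitals.

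Levels are given as the log2 of a probe's signal over the 75th percentile of its array, so 0 means a signal equal to that percentile. Levels of different probes are not compared with one another. All 33 members had a probe well above background on all 6 arrays, and no spot was saturated. On the CFD diet 5 members rose and 9 fell, at a limma p below 0.05 after Benjamini-Hochberg adjustment over all 15913 tested genes. In the same test 51.1% of all tested genes changed, 23.7% upward and 27.4% downward, against 42.4% of the members, 15.2% upward and 27.3% downward. The share of members that changed was thus not above the background. The median log2 fold change was -0.15 over the members and -0.11 over all tested genes. The arrays of the groups did not overlap for 6 members with higher and 14 with lower CFD diet levels, against 28.3% and 34.6% of all tested genes (62.8% in either direction).

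**Figure D1:**
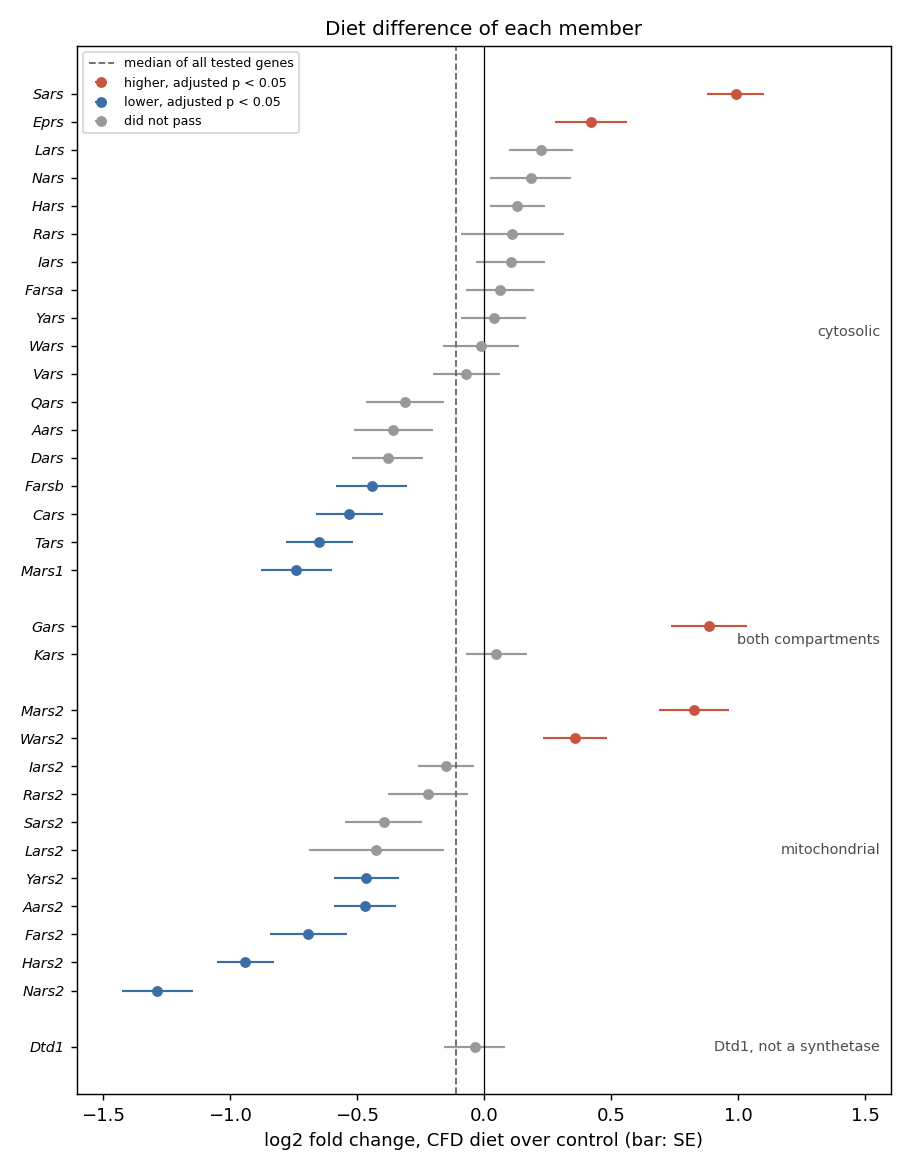
Log2 fold change (CFD diet over control, x axis; bar, SE) of 32 of the 33 members, 1 per line and grouped by compartment, in red or blue where it passed as higher or lower and grey where it did not; the dashed line is the median of all tested genes, -0.11. Sars at 0.99 and Nars2 at -1.28 are the ends of the range.

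Scaling mattered for the split between directions. With each array centred on its median in place of its 75th percentile, 3 members rose and 13 fell, and the median of all tested genes moved to -0.31. Of all genes called, 33.6% were then higher on the CFD diet, against 46.5% with the 75th percentile. All 14 called members kept the direction of their difference under each of 15 alternative settings, and 7 of them (Fars2, Gars, Hars2, Mars1, Mars2, Nars2 and Sars) also kept their call in all 15. Most of these settings could not reverse a direction. The trended variance, the replicate block and the filter to probes well above background on all 6 arrays keep each member's fold change. Leaving out 1 array cannot reverse groups that do not overlap, as in all 14. The deposited value table and the filter to probes well above background on all 6 arrays could hardly end a call. Both left the members' values all but unchanged, with 0 calls lost and 0 gained. Leaving out control replicate 3 or CFD diet replicate 3 left 3 members that rose and 5 that fell, and leaving out control replicate 1, control replicate 2 or CFD diet replicate 1 left 3 that rose. The groups did not overlap for any of the 14, so the difference within a slide had to carry the sign of the fold change on all 3 slides. For 11 of the 14 this difference was smallest on slide 2.

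Among the cytosolic enzymes 2 rose (Sars and Eprs), 4 fell (Mars1, Tars, Cars and Farsb) and 12 did not pass. The shares that rose and fell were 11.1% and 22.2%, against 23.7% and 27.4% of all tested genes. Sars, the seryl enzyme, which also puts serine on the selenocysteine tRNA, changed most. Its control arrays read 4.06, 3.98 and 4.14 and its CFD diet arrays 4.997, 5.04 and 5.11. The groups did not overlap, with a gap far wider than the spread within either. The log2 fold change was 0.99 ± 0.11 (SE, n = 3 and 3), a 1.99-fold rise (limma, adjusted p = 0.00088).

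Eprs, which carries the glutamyl and prolyl activities in 1 protein and sits in the multisynthetase complex, measured 3.32, 3.37 and 3.45 in controls and 3.96, 3.57 and 3.87 on the CFD diet. The groups did not overlap, but CFD diet replicate 2 lay close to the controls. Its rise was 0.42 ± 0.14 (adjusted p = 0.043). The call ended in 10 of the 15 settings, among them the fit with the slide as a replicate block (adjusted p = 0.073) and every fit that left out 1 array, except the fit without CFD diet replicate 2. Of its 4 tested probes, which all carry 1 accession, only this brightest one passed, with fold changes from 0.15 to 0.42.

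Mars1, the cytosolic methionyl enzyme, charges the amino acid that the CFD diet holds in reduced amount. Control arrays gave 2.97, 2.71 and 2.93 and CFD diet arrays 2.10, 2.31 and 1.99. All CFD diet arrays lay below all controls, with replicate 2 again nearest to them. The fall was -0.74 ± 0.14 (adjusted p = 0.0056), a 1.67-fold difference, and its other tested probe fell by 0.79 on the log2 scale.

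Tars went from 4.92, 4.77 and 4.89 in controls to 4.32, 4.30 and 4.02 on the CFD diet. The groups were well apart, and the fold change was -0.65 ± 0.13 (adjusted p = 0.0075). Both its tested probes fell. Quantile normalization took the value to -0.29 (adjusted p = 0.125).

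Cars, the cysteinyl enzyme, had tightly grouped controls at 2.97, 2.97 and 2.93 against 2.26, 2.62 and 2.41 on the CFD diet. The fold change was -0.53 ± 0.13 (adjusted p = 0.015), and its 3 tested probes all fell. Without the filter on dim probes, or without control or CFD diet replicate 3, the adjusted p was between 0.0506 and 0.0689.

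Phenylalanine is charged in the cytosol by an enzyme of α and β chains, encoded by Farsa and Farsb. Farsb fell by 0.44 on the log2 scale (SE 0.14, adjusted p = 0.036), from 1.46, 1.06 and 1.33 in controls to 0.86, 0.87 and 0.79 on the CFD diet. Farsa gave 1.41, 1.33 and 1.51 in controls and 1.31, 1.51 and 1.63 on the CFD diet. It did not pass (0.06 ± 0.13, adjusted p = 0.71), its arrays overlapped, and the sign differed among its 3 tested probes, from -0.03 to 0.23. The 2 chains of this enzyme therefore differed in call, and the difference between them was not tested. The Farsb call ended in 6 of the 15 settings, the replicate block (adjusted p = 0.0661) and the fits without control replicate 1 or 3 or CFD diet replicate 1 or 3 among them.

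**Figure D2:**
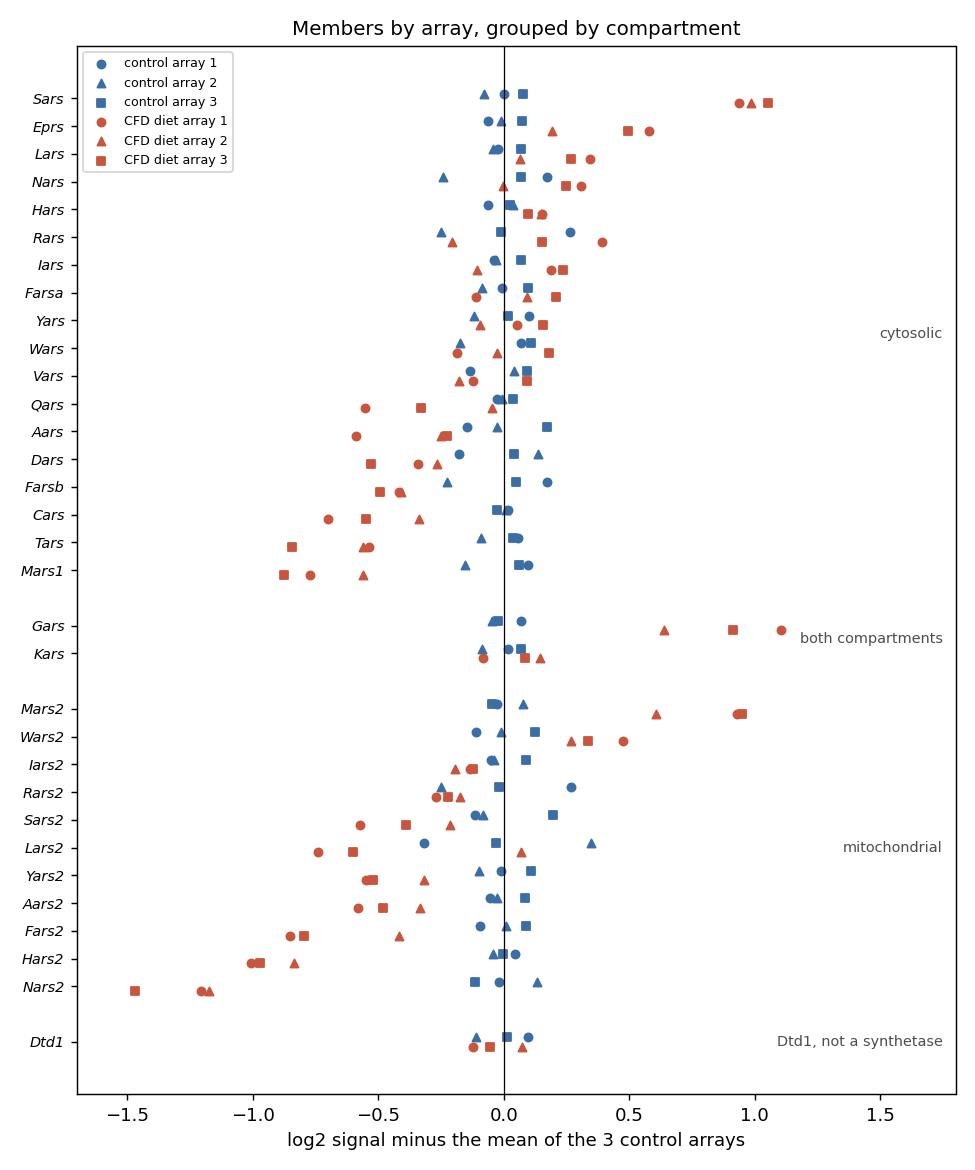
Log2 signal of 32 of the 33 members (1 per line) on the 3 control arrays (blue) and 3 CFD diet arrays (red), each minus the mean of the 3 control arrays, with a marker shape for each replicate number. Sars, Gars and Mars2 show CFD diet arrays above all controls, Nars2, Hars2 and Mars1 show them below, and CFD diet replicate 2 (red triangles) often lies nearest to the controls.

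The cytosolic enzymes that did not pass spanned fold changes from -0.38 to 0.22. Dars, the aspartyl enzyme of the complex, was nearest to the threshold: control arrays gave 2.13, 2.45 and 2.35, CFD diet arrays 1.97, 2.04 and 1.78, and the difference was -0.38 ± 0.14 (adjusted p = 0.059). Its groups did not overlap, and with CFD diet replicate 2 left out Dars (adjusted p = 0.0468) and Qars both passed. Aars measured 6.08, 6.20 and 6.40 in controls and 5.64, 5.98 and 6.00 on the CFD diet (-0.36 ± 0.16, adjusted p = 0.096). Its second probe, of the same accession, did fall (-0.44 ± 0.13, adjusted p = 0.0273 over all tested probes), while another, dim probe from a cDNA clone gave 0.14. The probes of Aars thus disagreed in call and in sign.

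Lars, the leucyl enzyme, read 3.43, 3.41 and 3.52 in controls and 3.80, 3.52 and 3.72 on the CFD diet (0.22 ± 0.12, adjusted p = 0.171). The groups overlapped, and 1 of its 3 tested probes had the opposite sign (-0.33). Iars gave 0.11 ± 0.14, Yars 0.04 ± 0.13 and Wars, the tryptophanyl enzyme, -0.01 ± 0.15, all with overlapping arrays. Hars (histidyl), Nars (asparaginyl), Rars (arginyl), Vars (valyl) and Qars (glutaminyl) gave 0.13, 0.18, 0.11, -0.07 and -0.31. Without control replicate 3 or CFD diet replicate 3, 1 cytosolic enzyme rose and 2 fell, and without control replicate 1, control replicate 2 or CFD diet replicate 1, 1 rose. The median of the 18 cytosolic enzymes was 0.01, and within slides 1 to 3 it was -0.08, -0.01 and 0.07. Its sign follows the scaling: 9 of 18 lay below 0 here, 15 with median scaling (median -0.19) and 5 with quantile normalization (median 0.10). Without CFD diet replicate 3 it was -0.06. Relative to the median of all tested genes it was 0.12 with the 75th percentile, 0.12 with median scaling and 0.14 with quantile normalization.

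Of the 8 members known from the multisynthetase complex (Eprs, Iars, Lars, Mars1, Qars, Rars, Kars and Dars), 1 rose and 1 fell, with a median of 0.08. The shares that rose and fell were 12.5% and 12.5%, below the 23.7% and 27.4% of all tested genes. The scaffold genes Aimp1, Aimp2 and Eef1e1, the last of which encodes the protein also called AIMP3, carry other names on the array and lie outside the rule. Aimp1 gave 4.13, 3.95 and 4.04 in controls and 3.81, 4.14 and 3.77 on the CFD diet (-0.14 ± 0.14, adjusted p = 0.452). Aimp2 gave -1.64, -1.73 and -1.77 in controls and -1.66, -1.52 and -1.55 on the CFD diet (0.14 ± 0.11, adjusted p = 0.325). Eef1e1 gave 0.04 ± 0.14 (adjusted p = 0.812). None of these 3 passed the test in any of the 15 settings, and the sign of each varied among them.

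The 2 enzymes that serve both compartments from 1 gene differed in call. Gars levels were -0.05, -0.16 and -0.14 in controls and 0.99, 0.52 and 0.80 on the CFD diet. Every CFD diet array was clear of the controls, with replicate 2 the lowest of them. The rise was 0.89 ± 0.15, 1.85-fold (adjusted p = 0.0037). Kars, the lysyl enzyme, measured 3.22, 3.11 and 3.27 in controls and 3.12, 3.34 and 3.29 on the CFD diet, overlapping groups with a difference of 0.05 ± 0.12 (adjusted p = 0.754).

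Among the mitochondrial enzymes 2 rose (Mars2 and Wars2), 5 fell (Nars2, Hars2, Fars2, Aars2 and Yars2) and 5 did not pass. The shares that rose and fell were 16.7% and 41.7%, against 23.7% and 27.4% of all tested genes. Mars2, the mitochondrial methionyl enzyme, read -3.15, -3.05 and -3.18 in controls and -2.20, -2.52 and -2.18 on the CFD diet. It rose by 0.83 ± 0.14, 1.77-fold (adjusted p = 0.0036), with no overlap, whereas its cytosolic counterpart Mars1 fell. The Mars2 probe was dim, with a processed signal of 44 to 49 in controls and 70 to 148 on the CFD diet. It was still well above background on all 6 arrays. Across the 15 settings the Mars2 rise ranged from 0.449 to 0.938, so its size is less certain than its direction. Wars2, for tryptophan, gave -2.15, -2.05 and -1.92 in controls and -1.57, -1.77 and -1.70 on the CFD diet, a difference of 0.36 ± 0.13 that passed narrowly (adjusted p = 0.049). The Wars2 call ended in 12 of the 15 settings, the replicate block among them (adjusted p = 0.0999), as were all fits that left out 1 array except that without CFD diet replicate 2. A second probe of the same accession gave -0.01.

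Nars2, the mitochondrial asparaginyl enzyme, fell most of all members. Control arrays gave 0.36, 0.51 and 0.26 and CFD diet arrays -0.83, -0.80 and -1.09, without overlap and with like differences on all 3 slides. The fold change was -1.28 ± 0.14, a 2.44-fold fall (adjusted p = 0.00071), and its other tested probe fell by 1.13 on the log2 scale. Hars2, for histidine, went from -1.43, -1.52 and -1.48 in controls to -2.48, -2.31 and -2.45 on the CFD diet. The spread within each group was small beside this gap, and the fold change was -0.94 ± 0.11 (adjusted p = 0.0011). The processed signal of its probe was low, 127 to 163 in controls and 81 to 123 on the CFD diet. Across the 15 settings the Hars2 value ranged from -1.143 to -0.573, so its size is less certain than its direction. Fars2, the single-chain mitochondrial phenylalanyl enzyme, measured 2.49, 2.59 and 2.67 in controls and 1.73, 2.17 and 1.79 on the CFD diet. Its fall was -0.69 ± 0.15 (adjusted p = 0.01), smallest on slide 2.

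Aars2 and Yars2, for alanine and tyrosine, fell by less. Aars2 went from 1.75, 1.77 and 1.88 in controls to 1.22, 1.47 and 1.32 on the CFD diet (-0.47 ± 0.12, adjusted p = 0.018). Control arrays of Yars2 gave 2.21, 2.13 and 2.34 and CFD diet arrays 1.68, 1.91 and 1.71 (-0.46 ± 0.13, adjusted p = 0.022). Neither overlapped between groups, but both calls ended without control replicate 3, CFD diet replicate 1 or CFD diet replicate 3. The Aars2 call ended in 4 settings and the Yars2 call in 6, for Yars2 also without control replicate 1 and with the replicate block (adjusted p = 0.0576).

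The other mitochondrial enzymes all had fold changes below 0 without passing. Sars2 (seryl) and Rars2 (arginyl) gave -0.39 and -0.22, with adjusted p = 0.067 and 0.274. Sars2 and Lars2 passed without CFD diet replicate 2, where they gave -0.48 and -0.67. Lars2, the mitochondrial leucyl enzyme, gave -0.42 ± 0.26 (adjusted p = 0.219) with overlapping arrays, 9.79, 10.45 and 10.07 in controls and 9.37, 10.18 and 9.51 on the CFD diet. Without control replicate 3 or CFD diet replicate 3, 1 mitochondrial enzyme rose and 3 fell, and without control replicate 1, control replicate 2 or CFD diet replicate 1, 1 rose. The median of the 12 was -0.43, and within slides 1 to 3 it was -0.49, -0.25 and -0.58. With 75th-percentile or median scaling 10 of 12 lay below 0, and with quantile normalization 8. Relative to the median of all tested genes the mitochondrial median was -0.33 with the 75th percentile and with median scaling, and -0.31 with quantile normalization.

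Iars2 has 3 tested probes, and they disagreed. The brightest, for the reference transcript, gave 2.95, 2.96 and 3.09 in controls and 2.86, 2.80 and 2.87 on the CFD diet (-0.15 ± 0.11, adjusted p = 0.288). A probe of a cDNA clone gave -0.21 ± 0.14. The last probe, annotated to a predicted transcript at chr1:184810746-184810805 (mm7), went from -2.48, -2.62 and -2.37 in controls to -4.52, -4.04 and -4.22 on the CFD diet. That is a fall of 1.77 on the log2 scale (SE 0.16, adjusted p = 0.000404 over all tested probes). It starts 1995 bases from the start of the brightest probe, and all 3 probes were well above background on all 6 arrays. The probe of the predicted transcript was dim, most so on the CFD diet, and a log ratio of such low signals is uncertain in size. Taking the mean of the probes, this dim one included, Iars2 passed the test (adjusted p = 0.00338).

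**Figure D3:**
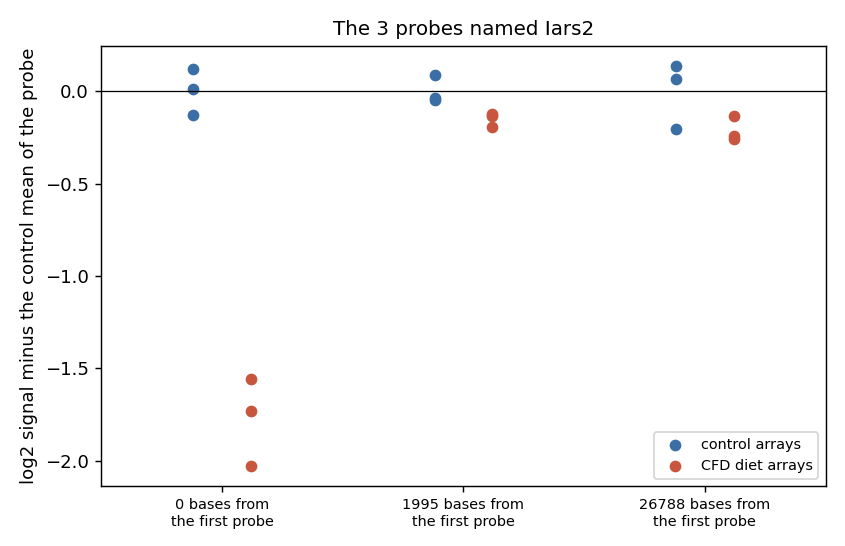
Log2 signal of the 3 Iars2 probes on the control (blue) and CFD diet (red) arrays, minus the control mean of the probe, ordered by distance in bases from the probe of the predicted transcript. That probe, a dim one, lies 1.77 lower on the CFD diet, while the brightest probe, 1995 bases away, changes by -0.15.

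Over all members, 15 genes had more than 1 tested probe. The probes gave the same call and the same sign in 9 of them. Calls differed for Aars, Eprs and Iars2, and signs for Aars, Farsa, Lars and Wars2. For Wars2 the probe that stands for the gene missed the threshold when p-values were adjusted over all tested probes instead of genes (adjusted p = 0.052).

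For 12 amino acids both a cytosolic and a mitochondrial enzyme were among the members, which makes 13 pairs because phenylalanine has 2 cytosolic genes. In each array the mitochondrial level was subtracted from the cytosolic level, which cancels any single scaling factor of an array, and only the diet difference of that value is read. This comparison was added after the values were seen. Lack of overlap between the groups was common, as 62.8% of all tested genes, taken singly, showed it in either direction. The cytosolic minus mitochondrial difference was greater on the CFD diet in 11 of 13 pairs, and in 6 of these the arrays of the groups did not overlap. For asparagine (Nars minus Nars2) it was 1.54, 0.97 and 1.53 in controls and 2.86, 2.52 and 3.06 on the CFD diet, 1.47 higher on average. For serine (Sars minus Sars2) it was higher by 1.38 and for histidine by 1.07. Methionine was the 1 pair with the opposite sign and no overlap: Mars1 minus Mars2 was 6.12, 5.77 and 6.10 in controls and 4.30, 4.83 and 4.17 on the CFD diet, a mean difference of -1.56. The Mars2 probe in this pair was dim, as given above, and the Hars2 probe of the histidine pair also had a low signal. The tryptophan pair was also below 0 (-0.37), with overlap. An exact two-sided permutation test gave p = 0.1 for the 7 pairs without overlap (0.186 after Benjamini-Hochberg adjustment over the 13 pairs). A p of 0.1 is the smallest that 3 against 3 arrays allow. No pair could therefore pass whatever its values, and the test decides nothing here.

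**Figure D4:**
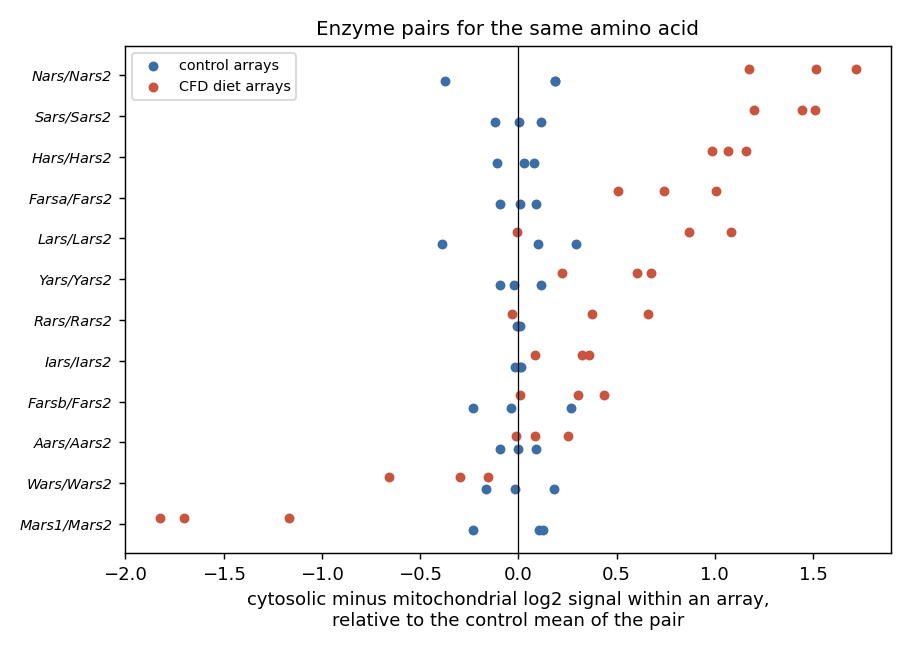
Cytosolic minus mitochondrial log2 signal within each array for 12 of the 13 enzyme pairs (1 per line), relative to the control mean of the pair, with 3 control arrays in blue and 3 CFD diet arrays in red. The red points lie left of all blue points for Mars1/Mars2 (mean change -1.56) and right of them for 6 pairs, with Nars/Nars2 farthest (1.47).

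Other genes of tRNA charging that the rule did not reach were measured for 19 genes. Of these 8 fell and 0 rose (limma, adjusted; 1 was higher at an unadjusted p under 0.05), with a median of -0.23. The share that fell was 42.1%, against 27.4% of all tested genes, of which 23.7% rose. The lowest were Vars2, the mitochondrial valyl enzyme (-1.14 ± 0.21, adjusted p = 0.005), and Tarsl2, a second cytosolic threonyl enzyme (-1.01 ± 0.14, adjusted p = 0.0019). Sepsecs and Pstk, the 2 enzymes that turn seryl-tRNA into selenocysteinyl-tRNA after Sars has charged it, also fell (-0.99 and -0.88). Mtfmt, which formylates the methionyl-tRNA made by Mars2, fell by 0.69 on the log2 scale (adjusted p = 0.0078). The remaining 3 that fell were Dtd2, Aarsd1 and Gatb, whose calls ended in 2, 6 and 9 of the 15 settings. With the replicate block 6 of the 19 were called lower, as Aarsd1 (adjusted p = 0.0545) and Gatb (0.0968) no longer passed. Those 2 calls also ended without control replicate 1, control replicate 3, CFD diet replicate 1 or CFD diet replicate 3, and that of Gatb without control replicate 2. The mitochondrial enzymes Ears2, Tars2 and Cars2, which sit under other names on the array, gave 0.32, -0.14 and -0.33 without passing.

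Of 12 tested genes listed as mitochondrial translation factors, not all of which act in translation itself, 7 fell and 0 rose, adjusted or not. Their median was -0.44. The share that fell was 58.3%, against 27.4% of all tested genes, of which 23.7% rose. The lowest were Gfm2, a ribosome recycling factor (-0.76 ± 0.13, adjusted p = 0.0036), and Lrpprc, which stabilises mitochondrial mRNAs (-0.67 ± 0.15, adjusted p = 0.0093). With quantile normalization 4 fell, and Lrpprc gave -0.30 (adjusted p = 0.0725). Leaving out control replicate 2, control replicate 3, CFD diet replicate 1 or CFD diet replicate 3 also left 4. Of 7 genes listed as cytosolic elongation factors, regulators included, 1 fell, Eef2 (-0.44 ± 0.14, adjusted p = 0.037), and 0 rose, adjusted or not. The Eef2 call ended with the replicate block and when any 1 array other than CFD diet replicate 2 was left out (0 called lower), while without CFD diet replicate 2 the count was 2. With quantile normalization the value of Eef2 was 0.02. Their median was -0.13, and with quantile normalization 4 rose and none fell, so no direction held for them under every scaling.

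Of 27 tested ATF4 and amino acid response genes 17 rose and 3 fell, with a median of 1.03. Over all tested genes 23.7% rose and 27.4% fell. A probe could enter the test through the CFD diet arrays alone, which favours genes that rose. Among the 23 genes of this list with a probe well above background on all 6 arrays, 13 rose and 3 fell. The largest rises were those of Nupr1, a stress-induced chromatin protein (5.85 ± 0.30, adjusted p = 8.8e-05), and Psat1 of serine synthesis (5.43 ± 0.26, adjusted p = 7.5e-05). Shmt2 (-0.83) and Cebpb (-0.66) were the lowest of those that fell. Wars is a known interferon-gamma target, so 19 genes of that response were set beside it: 4 rose and 2 fell, and their median was -0.59, -0.44 and 1.20 on slides 1 to 3. The called genes at the ends were Irf8, an interferon-induced transcription factor (1.35 ± 0.19, adjusted p = 0.0019), and the chemokine Cxcl10 (1.17 ± 0.28, adjusted p = 0.013) above, and the chemokine Cxcl9 (-0.999 ± 0.27, adjusted p = 0.02) and Ifng, interferon gamma itself (-0.75 ± 0.26, adjusted p = 0.048), below. The Ifng call ended in 8 of the 15 settings, and its difference was -0.17 with normexp. Wars differed by -0.25, 0.15 and 0.08 on the same slides. Without CFD diet replicate 3, 6 of the 19 were called lower, without control replicate 1 or 2 it was 0 (Cxcl9 adjusted p = 0.0506 and 0.0593), and without control replicate 3 or CFD diet replicate 1 it was 1.

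**Figure D5:**
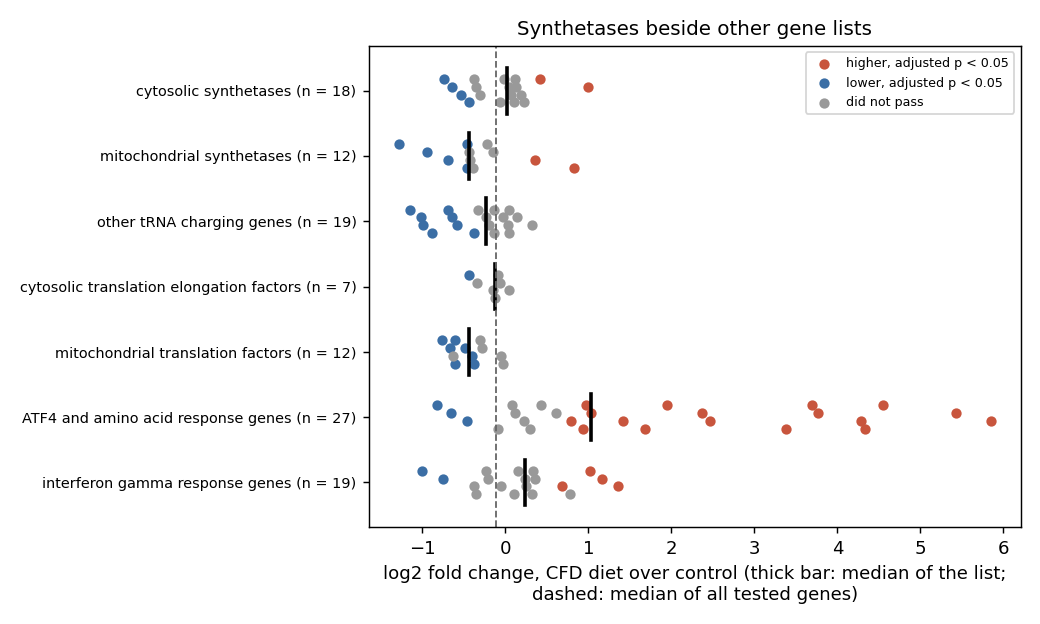
Log2 fold change (CFD diet over control) of each tested gene in the cytosolic and mitochondrial synthetases and in 5 comparison lists, coloured by call, with a thick bar at each median and a dashed line at the median of all tested genes. The ATF4 list has its median at 1.03, the mitochondrial synthetases at -0.43 and the mitochondrial translation factors at -0.44.

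Markers of several cell types also differed between the groups. Over all tested genes 23.7% rose and 27.4% fell. Of 11 tested hepatocyte markers 8 fell (median -0.81), and their summed level, in units of the array's 75th percentile, was 2808 to 3300 in controls and 1650 to 2560 on the CFD diet. Of 10 macrophage markers 8 rose and 1 fell, the Kupffer cell lectin Clec4f (-0.73 ± 0.21, adjusted p = 0.028), with a sum of 162.1 to 228.9 against 416.7 to 565.2. Markers rose in 8 of 8 cases for stellate cells (12.5 to 14.7 against 39.21 to 52.36), 6 of 6 for cholangiocytes (5.869 to 9.053 against 90.09 to 125.3, and 0.653 to 1.07 against 5.74 to 8.64 without Spp1, which macrophages also express) and 5 of 5 for proliferating cells (1.139 to 1.429 against 4.196 to 7.652). Among endothelial markers 1 rose and 3 fell of 6 (40.57 to 44.9 against 26.17 to 34.16), and of 7 T, B and NK cell markers 1 fell (0.8792 to 1.218 against 0.6462 to 0.989). Each sum follows mainly the brightest markers of its list, so it does not show a change shared by the whole list. Each tested marker, those of hepatocytes included, was well above background on at least 1 array of each group, so no tested marker of the labelled tissue was absent. A marker could enter the test through the CFD diet arrays alone, so the counts of markers that rose are not free of the filter. In bulk tissue fewer cells of a type and less RNA per cell cannot be told apart, and the part of these shifts in the synthetase differences was not tested.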

How the data were processed

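The authors deposited Agilent scanner files with 1 intensity per spot, background-subtracted by Feature Extraction (version 10.5.1.1 per the file headers, 10.7 per the submitters' processing notes), with probe positions on mm7. A deposited value table holds linear intensity values. Its column medians were 67.98, 61.49, 67.63, 72.67, 73.88 and 80.59. By rank correlation (1) each of its columns matches another replicate of its own group, so which replicate numbering is intended stays unknown. Scanner files were used here, and the table as an alternative; 0 columns were unmapped.

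The processed signal was put on the log2 scale after scaling to each array's 75th percentile (365.016 to 670.225). Spots of a probe were averaged after dropping control spots and flagged outliers. Between 21698 and 29055 probes per array were well above background; with 3 arrays a group, their number limits precision. A probe was tested if well above background on all 3 arrays of a group (23488 probes), and the brightest stood for its gene (15913 genes, of which 38 had a missing value on some array). Of the 65 probes the rule matched, 55 were tested. Symbols were updated through RefSeq (GRCm38.p6): 23075 probes by accession, 6587 by current and 3072 by older symbol, and 8440 kept the file's name. limma 3.58.1 in R 4.3.3 fitted the groups without a block, with Benjamini-Hochberg adjustment over all tested genes. A simulation with few changed genes checked only that the code ran as intended, since far more genes changed here.

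Per-array values are given for Mars1 and Mars2, up to 6 called members at either end, those nearest the threshold, Gars, Kars, Aimp1, Aimp2 and members whose probes disagree; Lars2, Aars2, Yars2 and Farsb were added after their values were seen. Of each list, the 2 highest and 2 lowest called genes are named; other list genes were chosen after their values were seen. Members and lists were chosen with earlier results of these data known, and Ears2, Tars2, Vars2, Cars2, Aimp1 and Aimp2 joined the tRNA charging list once the array's names were seen. A member and 1 list gene are counted but not reported here by name. Alternatives were normexp (offset 50), median scaling, quantile normalization, 2 other filters, probe means, trended robust variance, a replicate block, the value table, and each array left out.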

Additional observations from a re-analysis of the deposited data

How the results depend on the processing

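The 15 settings gave no change of sign in a called member, though most of them could not give one. Synthetases called were 5 higher and 9 lower; normexp, median scaling, probe means and the replicate block each gave 3 higher, no filter on dim probes gave 3 higher and 5 lower, and leaving out an array gave 3 to 5 higher and 5 to 13 lower. Cytosolic enzymes called higher were 1 with normexp, median scaling, no filter, probe means and the replicate block and 4 with quantile normalization; 2 were lower without a filter; leaving out an array gave 1 to 2 higher and 2 to 6 lower. Their median was -0.19 with median scaling, 0.104 with quantile normalization and -0.064 to 0.045 when an array was left out. Mitochondrial enzymes called higher were 1 with normexp, median scaling, quantile normalization, no filter, probe means, the trended variance and the replicate block; 3 were lower without a filter; leaving out an array gave 1 to 2 higher and 3 to 7 lower. Their median was -0.637 with median scaling and -0.507 to -0.356 when an array was left out. Control replicate 3 and CFD diet replicate 3 decided most: without either, 5 synthetases stayed lower, and the calls of Aars2, Cars, Eprs, Farsb, Wars2 and Yars2 ended (adjusted p 0.0506 to 0.123). Without CFD diet replicate 2 no member's call ended and 4 more passed (Dars, Lars2, Qars and Sars2).

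Over all tested genes, 2461 were lower without a filter, where 27666 genes share the adjustment, and 2773 to 4953 when an array was left out (4354 otherwise). In the tRNA charging list, quantile normalization gave 1 higher and no filter 5 lower. For cytosolic elongation factors, quantile normalization gave 4 higher and 0 lower, probe means 1 higher and 2 lower, no filter and the replicate block 0 lower, and leaving out an array 0 to 2 lower. Mitochondrial translation factors called lower were 4 with quantile normalization or no filter and 4 to 7 when an array was left out. The difference of Eef2 was 0.016 with quantile normalization. In the ATF4 list 1 was lower without a filter. In the interferon list 1 was lower with normexp, no filter or the trended variance, and 0 to 6 when an array was left out. The cause of these changes was not tested.

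Same-numbered arrays share a slide, but their deviations from the group means correlated at 0.173, -0.069 and -0.01, so the numbers were not taken to pair the samples. With the replicate block 3 synthetases were higher and 7 lower, and Eprs, Farsb, Wars2 and Yars2 lost their call (adjusted p 0.0576 to 0.0999). The main probe of each member was well above background on all 6 arrays.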

Other observations

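The single probe for Lars2, the mitochondrial leucyl enzyme, was among the brightest on the array. It ranked from 2 to 4 by signal on every array, with a processed signal between 388291 and 511431, in controls as on the CFD diet. Such a signal cannot be set against those of other probes as a level, and no spot was flagged as saturated.

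CFD diet replicate 3 had higher interferon-induced GTPases than every other array. Igtp measured 4.52, 4.24 and 4.47 in controls and 3.11, 3.58 and 6.86 on the CFD diet, and Gbp6 -0.23, -0.14 and -0.37 and -0.82, -0.91 and 1.97. CFD diet replicates 1 and 2 lay below all controls for Igtp and Gbp6. Neither gene passed the test. They were chosen after their values were seen.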
